A study of Homo sapiens with 6 samples.

Results

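Translation initiation and elongation factors were followed in U251 cells, an established human glioma line, after knockdown of TEAD3, a DNA-binding partner of YAP and TAZ in the Hippo pathway. The 42 genes were taken by name from the 60612 gene identifiers of the count table, 1 identifier each: 4 scanning and start-codon factors, the 3 subunits of EIF2 and the 5 of EIF2B, 13 subunits of EIF3, 8 genes of the EIF4 group, 2 poly(A)-binding proteins, EIF6 and 6 elongation factors. Polyadenylated RNA was sequenced in 3 libraries labelled TEAD3 Knockdown and 3 labelled Normal Control. Cells were transfected transiently. The labels mention a vector for the plasmid as well as an siRNA active at about 36 h, and leave the treatment of the controls unstated. Nor is it stated that replicates were separate cultures, so p-values cover the variation among these libraries only, and it may be technical. All 42 genes passed the filter on low counts.

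Translation of most mRNAs begins when EIF4E binds the cap, EIF4G bridges it to the poly(A)-binding protein and to EIF3 on the small ribosomal subunit, and the helicase EIF4A opens the leader. EIF2 brings the initiator tRNA and is recharged with GTP by EIF2B, a step that stress kinases block through phosphorylation of EIF2. EEF1A then delivers aminoacyl-tRNAs and EEF2 moves the ribosome along the message. Many of these factors are made from TOP mRNAs, which start with a C and a run of pyrimidines, as do the mRNAs of ribosomal proteins, and which are controlled through mTOR and LARP1.

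The annotated start sites are shown because they divide the factors by this feature. RefSeq windows (GRCh38.p14) were matched for 33 of the 42 genes. Among those without a window were EIF3A, EIF3E, EIF3H, PABPC1 and EEF1D, which are commonly listed as TOP mRNAs. In 10 of them (30.3%) an annotated start was a C followed on the sense strand by at least 4 bases that were each C or T, against 7.2% of the 12021 tested genes with a window, 74.6% of 63 ribosomal protein genes and 4.07% of all 35116 windows. The 10 are printed 5′ to 3′ as 15 bases before the start and 15 from it on, with capitals marking the tract within the printed bases. Of the 2 annotated starts of EEF1B2, only the one shown had a tract.
EEF1A1, chr6:73521018-73521047, minus strand: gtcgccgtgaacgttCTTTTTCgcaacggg
EEF2, chr19:3985449-3985478, minus strand: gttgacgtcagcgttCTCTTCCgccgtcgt
EEF1B2, chr2:206159880-206159909, plus strand: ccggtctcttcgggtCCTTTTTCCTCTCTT
EIF3D, chr22:36529152-36529181, minus strand: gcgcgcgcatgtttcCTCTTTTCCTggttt
EIF3F, chr11:7987322-7987351, plus strand: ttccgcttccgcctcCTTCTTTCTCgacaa
EIF3K, chr19:38619173-38619202, plus strand: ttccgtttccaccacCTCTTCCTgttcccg
EIF3M, chr11:32583816-32583845, plus strand: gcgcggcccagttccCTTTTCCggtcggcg
EIF4A2, chr3:186783562-186783591, plus strand: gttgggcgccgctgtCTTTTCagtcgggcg
EIF4B, chr12:53006441-53006470, plus strand: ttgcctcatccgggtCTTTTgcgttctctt
EIF2S3, chrX:24054941-24054970, plus strand: ggggtgatttccttcCTCTTTTggcaacat

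For comparison, 4 factors that the results below turn on had no such tract at the windows shown, which have no capitals.
EIF4A1, chr17:7572810-7572839, plus strand: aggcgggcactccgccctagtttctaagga
EIF3I, chr1:32222392-32222421, plus strand: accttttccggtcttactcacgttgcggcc
EIF2B2, chr14:75002906-75002935, plus strand: gacctcgcccgccccggaagtgcaaactgt
EIF5, chr14:103334222-103334251, plus strand: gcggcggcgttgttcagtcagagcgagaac

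The libraries held between 63145768 and 64808615 counts in the knockdown and between 58344026 and 63685272 in the controls. TEAD3 (chromosome 6, 35473597 to 35497076) reached 4.70, 8.35 and 6.08 CPM in the knockdown libraries and 14.9, 20.3 and 21.0 CPM in the controls, with no overlap (log2 fold change -1.55, edgeR adjusted p = 0.0114). The call was lost without a filter on low counts (edgeR adjusted p = 0.0639) and without knockdown replicate 1 or 3 or control replicate 3 (0.0532, 0.0938 and 0.0541), and over all alternatives the adjusted p lay between 1.55e-10 (DESeq2) and 0.0938. CPM are counts scaled to a common library size, here after TMM normalization. Control replicates 1 and 2 stood apart in base composition: across genes, their deviations from the mean of all libraries followed transcript GC content with Spearman correlations of -0.518 and 0.626, while the other libraries lay between -0.212 and 0.163. Of 10 glial markers, OLIG2 was at 0 in every library and S100B and AQP4 stayed under 1 CPM, and GFAP averaged 0.572 CPM in the knockdown and 1.46 CPM in the controls. VIM, NES, SOX2 and CD44 were all above 100 CPM on average in both groups. The 10 glial markers summed to 4390 to 4940 CPM in the knockdown and 5320 to 5880 CPM in the controls, without overlap, mostly VIM, and 6 of the 8 tested had a log2 fold change below 0, with no edgeR call among the 8 (unadjusted p under 0.05 for 1 higher and 3 lower) and 1 DESeq2 call, higher. Their part in the results below was not tested. Among 12 markers of neurons, myeloid cells, endothelium and epithelium, AIF1 was at 0 throughout, 6 more stayed under 1 CPM, and KRT8, at 179 and 206 CPM in the knockdown and the controls, made up most of the sum, which was 183 to 191 CPM in the knockdown and 196 to 246 CPM in the controls.

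No translation factor passed the test. Of 42, edgeR called none at an adjusted p under 0.05 (adjusted over all 17723 genes tested), where 0.655% of all genes were called, 0.451% higher and 0.203% lower. DESeq2 called none either, where it called 6.11% of the genes it gave an adjusted p, 3.42% higher and 2.69% lower, and limma-voom called none. An unadjusted edgeR p under 0.05 was reached by 9 of the 42, where 15.6% of all genes reached it. Of these, 7 had a higher level in the knockdown (16.7%, against 8.15% of all genes) and 2 a lower one (4.76%, against 7.43%). Among the 6160 tested genes with at least 30 CPM on average, 10.3% reached it on the higher side and 12.1% on the lower. The counts among the 42 changed in fits that left out 1 library. Such fits have fewer libraries, and their calls over all genes changed too, from 116 to between 20 and 589. The share of all genes at an unadjusted p under 0.05 in those fits is not given here, so dependence on a single library cannot be told from lost power. The count on the higher side was 2 and 4 without knockdown replicates 1 and 2, and 4, 11 and 0 without control replicates 1, 2 and 3. The count on the lower side was 1 and 0 without knockdown replicates 1 and 3, and 1, 6 and 0 without control replicates 1, 2 and 3. After a correction for transcript length and GC content there were 7 on the higher side and 4 on the lower. That fit also called more of all genes at an adjusted p under 0.05 (3.49%, 299 higher and 319 lower). Its share of all genes at an unadjusted p under 0.05 is not given here either. The smallest adjusted p, 0.209, belonged to EEF1A1.

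In the edgeR fit of all 6 libraries the estimated differences were small. The intervals below were taken 1 gene at a time and, like the p-values, cover the variation among these libraries only. The estimated fold changes (knockdown over control) lay between 0.824 for EIF2B2 and 1.24 for EIF3K, and the 95% intervals of all 42 lay between 0.685-fold and 1.47-fold, inside a 1.5-fold change in either direction. The lowest count of any of these genes in any library was 1933. The coefficient of variation between libraries had a median of 5.39% in the knockdown and 7.86% in the controls over the 42 genes, against 6.73% and 10.1% over the 6160 tested genes with at least 30 CPM on average.

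**Figure D1:**
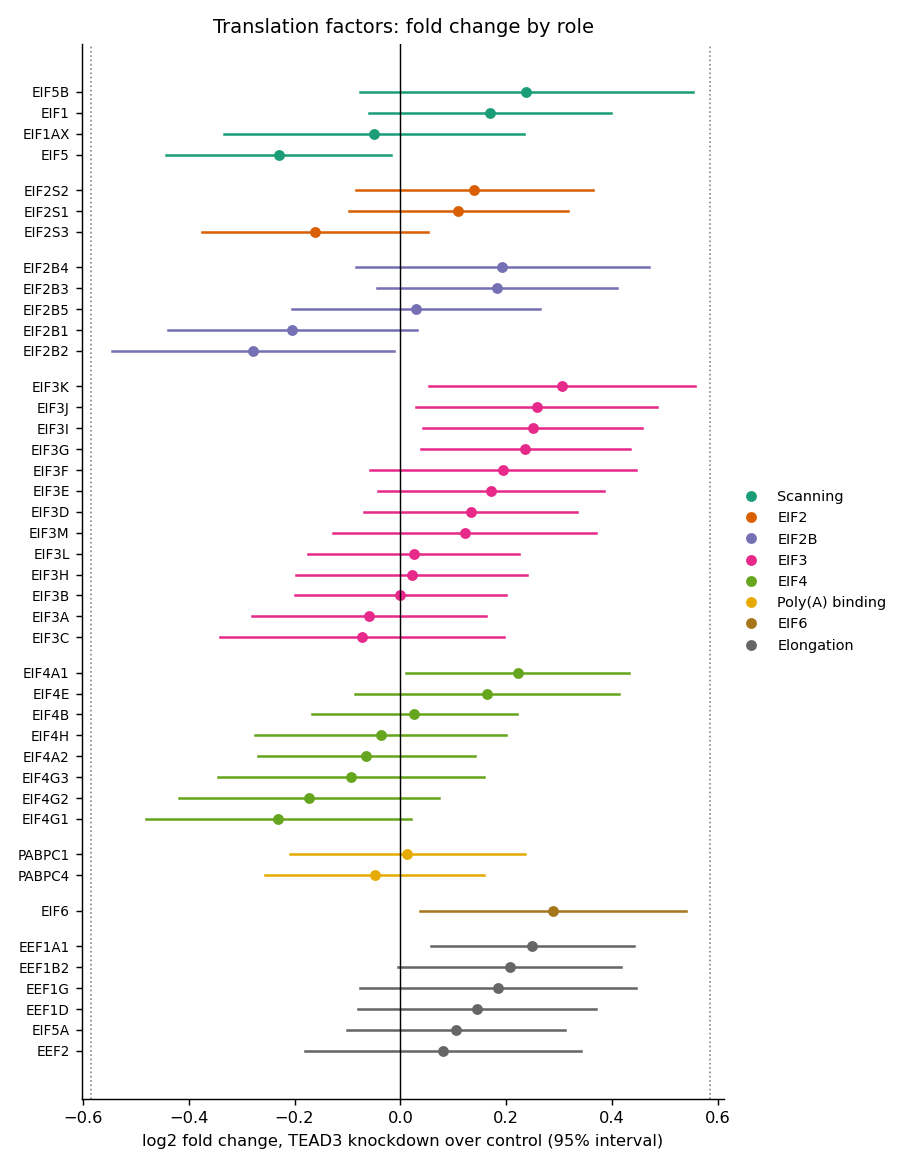
Log2 fold change (knockdown over control, x axis) of each of the 42 translation factors, grouped by role, with the 95% interval from edgeR as a line and dotted lines at a 1.5-fold change. Every interval lies within the dotted lines, all 6 elongation factors are above 0, and the EIF4 group is spread on both sides.

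As a set, 28 of the 42 had a log2 fold change above 0 (66.7%, against 49.8% of all genes), with a median of 0.11 where the median of all tested genes was -0.0012. The groups did not overlap for 12 of the 42 (21.6% of all genes). The knockdown libraries lay above all controls for 10 of these (23.8%, against 11% of all genes) and below them for 2 (4.76%, against 10.6%). Among the 6160 genes with at least 30 CPM, 11.9% lay above all controls and 15.3% below, and 45.7% had a log2 fold change above 0. The counts of the 42 genes together made up 1.79%, 1.79% and 1.80% of all counts in knockdown replicates 1 to 3, against 1.69%, 1.65% and 1.64% in control replicates 1 to 3. All knockdown libraries were above all controls. In TMM-scaled CPM the 42 summed to 18101, 18010 and 17875 in the knockdown and 16421, 16977 and 16283 in the controls, also without overlap. EEF1A1 alone held 27.0 to 31.5% of this CPM sum. Without EEF1A1 the sum was 12395, 12576 and 12265 CPM in the knockdown and 11489, 12398 and 11695 CPM in the controls, and the groups overlapped. The share of all counts without EEF1A1 is not given here.

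Elongation factors all lay above 0, at log2 fold changes from 0.08 to 0.25. EEF1A1 (chromosome 6, 73515750 to 73523797), the GTPase that brings aminoacyl-tRNA to the ribosome, had 5706, 5434 and 5615 CPM in knockdown replicates 1 to 3 and 4928, 4579 and 4586 CPM in control replicates 1 to 3. Every knockdown library was above every control, by more than the spread within either group. Knockdown libraries averaged 5585 ± 138 CPM and controls 4698 ± 200 CPM (SD, n = 3 each). The difference was 0.25 on the log2 scale, with an SE of 0.0873 (unadjusted p = 0.0154, edgeR adjusted p = 0.209).

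EEF1A1 was called in 1 of 16 alternative fits, the length and GC correction that used each gene's longest principal transcript (0.33, edgeR adjusted p = 0.0364). This alternative was chosen after seeing the data, and with the principal transcript of median length the edgeR adjusted p was 0.0534. Over the 16 alternatives its log2 fold change lay between 0.229 and 0.329 and its adjusted p, from edgeR, DESeq2 or limma-voom, between 0.0364 and 0.514. Counts of EEF1A1 and of its 49 annotated pseudogenes cannot be separated with certainty. Pseudogenes held 5.66% of the joint counts, and the joint level was 6036, 5782 and 5946 CPM in the knockdown and 5227, 4835 and 4871 CPM in the controls, again with no overlap. The neuronal and muscle paralog EEF1A2 averaged 64.9 CPM in the knockdown and 84.7 CPM in the controls (log2 fold change -0.38, unadjusted p = 0.02, edgeR adjusted p = 0.232), with overlapping groups. This paralog was named after its values were seen.

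The exchange factor of EEF1A is made from EEF1B2, EEF1D and EEF1G. EEF1B2, which encodes a catalytic subunit, had 160, 143 and 142 CPM in knockdown replicates 1 to 3 and 136, 126 and 124 CPM in control replicates 1 to 3. These groups did not overlap, although the lowest knockdown value and the highest control were close (0.21, edgeR adjusted p = 0.331), and after the length and GC correction the log2 fold change was 0.083. EEF1D and EEF1G were at 0.14 and 0.18 with overlapping groups, and their exons overlap those of another gene on the same strand (EEF1G) or the opposite one (EEF1D). Summed with that same-strand gene, EEF1G was at 785.1, 763.5 and 733.8 CPM in the knockdown. The sum was 652.1, 769.4 and 669.9 CPM in the controls, again with overlap, and the log2 ratio of the group means was 0.13.

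EEF2, the translocase, had 2111, 2277 and 2342 CPM in the knockdown and 1828, 2488 and 2048 CPM in the controls. Its groups overlapped, and control replicates 1 and 2 were the lowest and the highest of all 6 libraries (0.08, edgeR adjusted p = 0.81), and the sign turned without control replicate 1 (-0.016). EIF5A, the hypusine-bearing factor that relieves ribosome stalling, had 428, 429 and 412 CPM in the knockdown and 370, 426 and 383 CPM in the controls, with overlap at control replicate 2 (0.11, edgeR adjusted p = 0.65). After the length and GC correction it was at 0.0285. Per length of the principal transcript, EEF1A1 was the most abundant of the 42 at 3789 TPM in the knockdown and 3395 TPM in the controls. EEF2 followed at 1110 TPM in the knockdown and 1108 TPM in the controls, and EIF4A1 and EIF4A2 came next.

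**Figure D2:**
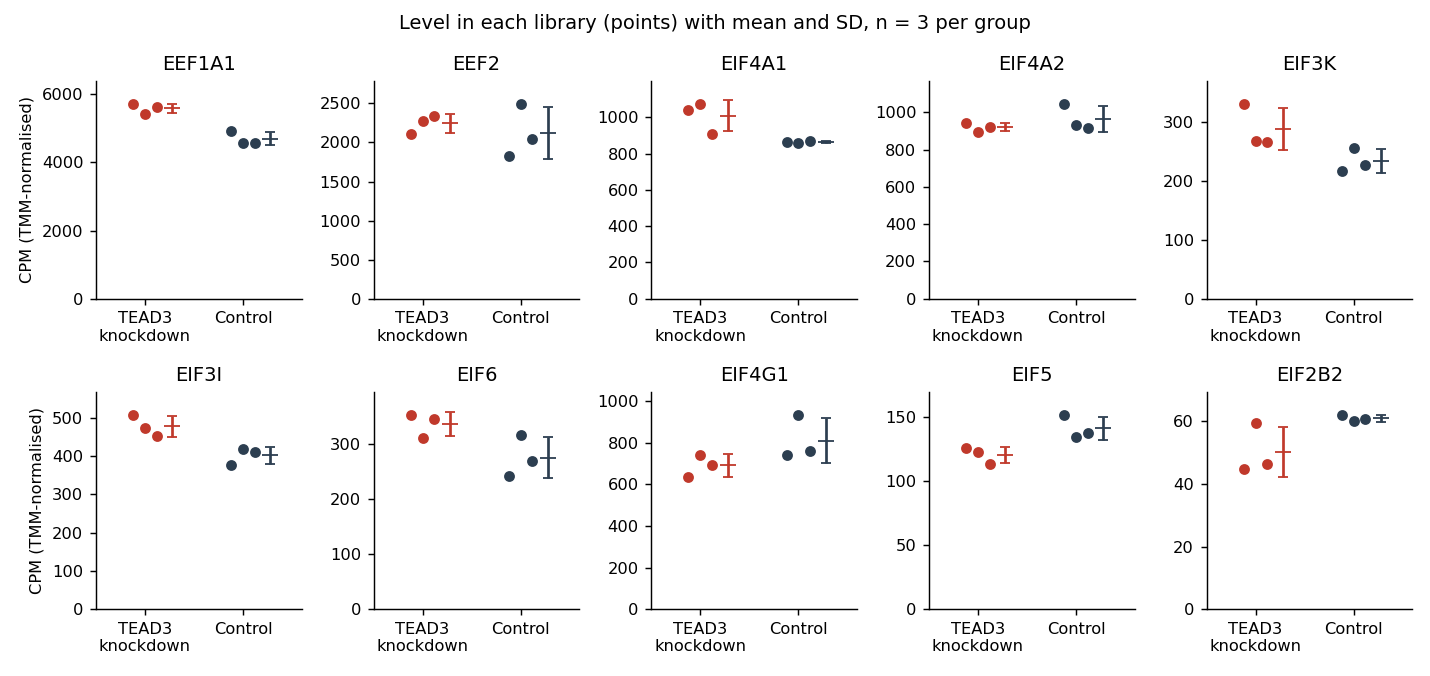
Level in CPM (y axis, from 0) of 10 translation factors in each of the 3 knockdown and 3 control libraries (points), with the group mean and SD beside them. EEF1A1, EIF4A1, EIF3K and EIF3I lie above all controls in every knockdown library and EIF5 and EIF2B2 below, while EEF2, EIF4A2, EIF6 and EIF4G1 overlap.

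EIF3, the scaffold that holds the initiation factors on the small subunit, had 10 of 13 subunit genes above 0, with a median of 0.13. The knockdown libraries lay above all controls for 6 of the 13, EIF3D, EIF3E, EIF3G, EIF3I, EIF3J and EIF3K, and below them for none, where 11% of all genes lay above all controls and 10.6% below. Whether the subunits differed from each other was not tested. EIF3A, EIF3B and EIF3C, the large subunits around which the complex is built, were at -0.06, -0.0003 and -0.07, and EIF3H and EIF3L were at 0.02 and 0.03.

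EIF3K had the largest estimate of all 42. Its level was 330, 268 and 266 CPM in knockdown replicates 1 to 3 and 216, 256 and 227 CPM in control replicates 1 to 3. Knockdown replicate 1 stood above the other 5 libraries, and knockdown replicates 2 and 3 were only just above control replicate 2. The log2 fold change was 0.30 with SE 0.114 (unadjusted p = 0.0217, edgeR adjusted p = 0.238), and it was 0.20 without knockdown replicate 1 and 0.17 after the length and GC correction.

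EIF3I and EIF3G encode subunits that bind EIF3B at the edge of the complex. EIF3I had 507, 474 and 453 CPM in the knockdown and 377, 417 and 411 CPM in the controls (0.25, unadjusted p = 0.0222, edgeR adjusted p = 0.24). EIF3G had 335, 338 and 323 CPM in the knockdown and 265, 291 and 289 CPM in the controls (0.24, unadjusted p = 0.0236, edgeR adjusted p = 0.245). In both, the lowest knockdown library was clearly above the highest control, and EIF3G was at 0.11 after the length and GC correction.

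EIF3J, a loosely bound subunit that helps to seat and release EIF3, had 71.1, 68.9 and 63.8 CPM in the knockdown and 61.9, 53.4 and 55.1 CPM in the controls, which did not overlap (0.26, unadjusted p = 0.0298, edgeR adjusted p = 0.264). EIF3E had 164, 154 and 167 CPM in the knockdown and 150, 131 and 150 CPM in the controls (0.17, edgeR adjusted p = 0.433), also without overlap but with a gap smaller than the spread within the controls. It was at 0.0439 after the length and GC correction and at 0.11 without control replicate 2. EIF3C has a near-identical copy, EIF3CL, so their counts were also summed: 297, 338 and 323 CPM in the knockdown and 298, 327 and 334 CPM in the controls, which overlapped entirely.

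The EIF4 group had 3 of 8 genes above 0 and a median of -0.05. It includes the helicase paralogs EIF4A1 and EIF4A2. EIF4A1 had 1042, 1071 and 910 CPM in knockdown replicates 1 to 3 and 863, 859 and 870 CPM in control replicates 1 to 3. All knockdown libraries were above the controls, which lay close together (0.22, unadjusted p = 0.0405, edgeR adjusted p = 0.297). EIF4A1 shares exons with a read-through gene, another same-strand transcript and 3 snoRNA genes, and the level summed over all of them was 1105, 1109 and 1094 CPM in the knockdown and 909, 951 and 905 CPM in the controls, with no overlap.

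EIF4A2 had 944, 897 and 922 CPM in the knockdown and 1043, 931 and 915 CPM in the controls, with overlapping groups (-0.06, edgeR adjusted p = 0.806). Without control replicate 1 it was at -0.0032 and after the length and GC correction at -0.14. The ratio of EIF4A1 to EIF4A2 within a library was 1.10, 1.19 and 0.988 in the knockdown and 0.827, 0.923 and 0.951 in the controls. Every knockdown ratio was above every control ratio, but this ratio was chosen after the values were seen and was not tested.

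The scaffold genes EIF4G1, EIF4G2 and EIF4G3 were all below 0. EIF4G1 had 635, 742 and 693 CPM in the knockdown and 739, 932 and 759 CPM in the controls, so that knockdown replicate 2 lay within the control range (-0.23, unadjusted p = 0.0673, edgeR adjusted p = 0.361). Its estimate leaned on control replicate 2, the highest library, and was -0.12 without it and -0.15 after the length and GC correction. EIF4G2, which encodes a cap-independent relative of EIF4G1, had 378, 420 and 412 CPM in the knockdown and 494, 387 and 482 CPM in the controls. There control replicate 2 was instead the low one (-0.17, edgeR adjusted p = 0.499), and the estimate was -0.28 without it and -0.11 without control replicate 1.

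EIF4E, the cap-binding protein, had 58.4, 47.9 and 52.5 CPM in the knockdown and 48.8, 43.0 and 49.9 CPM in the controls, with overlap (0.16, edgeR adjusted p = 0.533, and 0.09 without knockdown replicate 1 or 0.0985 without control replicate 2). Its annotated pseudogenes held 15.2% of the joint counts, the largest share among the 42. EIF4B, EIF4H and EIF4G3 were at 0.03, -0.04 and -0.09, all with overlap. PABPC1, which binds the poly(A) tail, had 346, 394 and 348 CPM in the knockdown and 356, 333 and 389 CPM in the controls. The groups covered the same range (0.01, edgeR adjusted p = 0.977), and the sign turned without knockdown replicate 2 (-0.0507) or control replicate 2 (-0.0409). Its relative PABPC4 was at -0.05.

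The EIF2 and EIF2B genes were divided. EIF2S1 encodes the alpha subunit of EIF2, which stress kinases phosphorylate, and had 95.0, 85.7 and 92.3 CPM in the knockdown and 88.2, 82.5 and 82.4 CPM in the controls, with overlap at control replicate 1 (0.11, edgeR adjusted p = 0.637, and -0.0131 after the length and GC correction). EIF2S2 was at 0.14 and EIF2S3 at -0.16, both with overlap. Of the EIF2B genes, EIF2B3 and EIF2B4 were at 0.18 and 0.19, and EIF2B5, the catalytic subunit, was at 0.03. EIF2B1 and EIF2B2 were at -0.20 and -0.28.

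EIF2B2 had the lowest estimate of the 42, with 44.8, 59.3 and 46.3 CPM in knockdown replicates 1 to 3 and 61.9, 59.9 and 60.8 CPM in control replicates 1 to 3. Knockdown replicates 1 and 3 were well below the controls and knockdown replicate 2 barely so (unadjusted p = 0.0418, edgeR adjusted p = 0.302). EIF2B1 had 51.1, 57.1 and 49.8 CPM in the knockdown and 61.9, 55.4 and 64.7 CPM in the controls, and overlapped at control replicate 2 (edgeR adjusted p = 0.394). EIF2B3 had 38.1, 41.3 and 36.6 CPM in the knockdown and 34.7, 34.1 and 33.4 CPM in the controls, without overlap (edgeR adjusted p = 0.429).

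EIF5, the GTPase-activating protein of EIF2, was the other gene below all controls, with 126, 123 and 113 CPM in the knockdown and 152, 135 and 138 CPM in the controls (-0.23, unadjusted p = 0.0359, edgeR adjusted p = 0.284). The other scanning and joining factors EIF1, EIF1AX and EIF5B were at 0.17, -0.05 and 0.24 with overlap. EIF6, which keeps the large ribosomal subunit from joining too early and is needed to make it, had 352, 310 and 345 CPM in the knockdown and 241, 315 and 268 CPM in the controls. Knockdown replicate 2 fell just under control replicate 2 (0.29, unadjusted p = 0.0281, edgeR adjusted p = 0.259), and the estimate was 0.18 after the length and GC correction.

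Transcript length moved with the fold changes of these genes. Over the 42 the Spearman correlation between log2 fold change and the length of the principal transcript was -0.588, and over 9564 tested protein-coding genes with at least 10 CPM it was -0.307. These genes come from the same 6 libraries and the correlations are descriptions. Single libraries stood apart by length: across genes, the deviation of a library followed transcript length with Spearman correlations of -0.313, -0.087 and -0.0557 in knockdown replicates 1 to 3 and 0.255, -0.056 and 0.259 in control replicates 1 to 3. Their part in the fold changes was not tested beyond the correction and the fits without 1 library. The 21 genes of shorter transcript, split at 2507.5 nucleotides, had a median of 0.18 with 18 above 0, and the 21 longer ones a median of -0.0003 with 10 above 0. In EIF3, EIF3K and EIF3G have annotated transcripts of 864 and 1103 nucleotides and EIF3A one of 4495. Correction for length and GC content lowered the median over the 42 from 0.11 to 0.08. The median of all tested genes fell too, from -0.0012 to -0.0178. With the correction 31 of the 42 were above 0, against 28 without it. The RNAs without a poly(A) tail, 5 in all and summed, were at 36.2 to 161 CPM in the knockdown and 32.7 to 78.5 CPM in the controls, and their part in these differences was not tested.

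**Figure D3:**
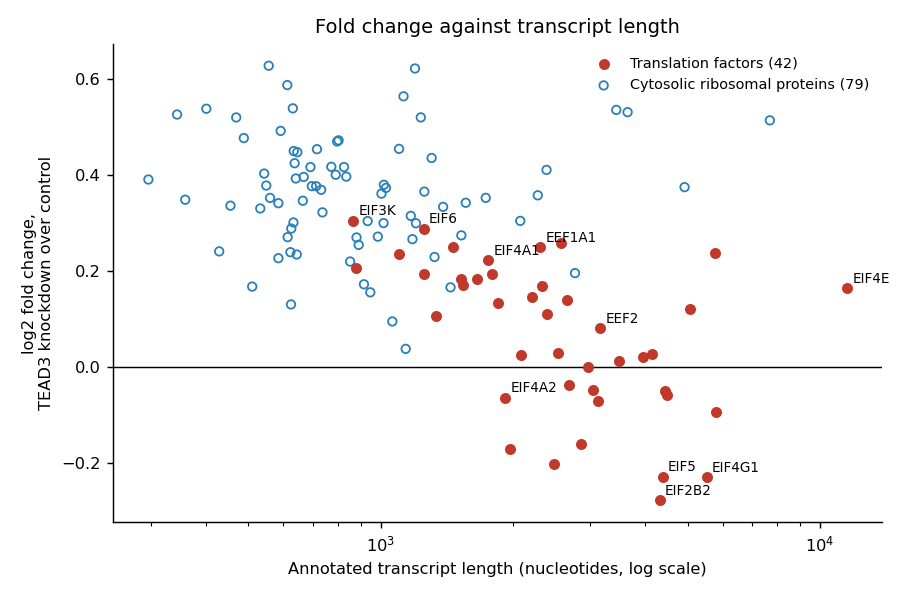
Log2 fold change (knockdown over control, y axis) against the length of the principal transcript (x axis, log scale) for the 42 translation factors (filled) and 79 cytosolic ribosomal protein genes (open). The factors with the shortest transcripts lie at or above 0.1, and the ribosomal proteins, mostly shorter, lie higher.

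Of the 33 genes with a start window, the 10 with a tract had log2 fold changes with a median of 0.13 and a range from -0.16 to 0.30, 8 of them above 0. The 23 without had a median of 0.11 and a range from -0.28 to 0.29, with 13 above 0. Among all tested genes with a window the medians were 0.0146 with and -0.0056 without a tract. The 11 factors commonly listed as TOP mRNAs (EEF1A1, EEF1B2, EEF1D, EEF1G, EEF2, EIF3A, EIF3E, EIF3F, EIF3H, EIF4B and PABPC1) had a median of 0.14, with 10 above 0 and 3 above all controls, where 49.8% of all genes were above 0 and 11% above all controls. None was called by edgeR or DESeq2, and 1 was on the higher side at an unadjusted p under 0.05, against 8.15% of all genes. The 31 other factors had a median of 0.11, with 18 above 0 and 7 above all controls. This list and the split by tract differ. TOP-listed EIF3A, EIF3E, EIF3H, PABPC1 and EEF1D had no window, and EEF1G had no tract. EIF2S3, EIF3D, EIF3K, EIF3M and EIF4A2 had a tract but are among the other factors. The length and GC correction gave medians of 0.1056 for the TOP-listed factors and 0.0475 for the others. With each gene's longest principal transcript they were closer, 0.0979 for the TOP-listed factors and 0.0711 for the others. The order of these medians was not stable: without control replicate 3 they were 0.0833 for the TOP-listed factors and 0.0878 for the others. The median of the others was also lower without knockdown replicate 2 (0.0611) and without control replicate 1 or 2 (0.0636 and 0.0647), and that of the TOP-listed factors was 0.1017 without control replicate 1.

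The 79 cytosolic ribosomal protein genes, translated from TOP mRNAs too, had all log2 fold changes above 0 and a median of 0.37, with none called by edgeR, 66 on the higher side at an unadjusted p under 0.05 (83.5%, against 8.15% of all genes) and 42 higher by DESeq2 (against 3.42%). Their median was 0.23 after the length and GC correction. The median deviation of a library from each gene's mean, on the log2 scale, was 0.40, 0.03 and 0.10 for the ribosomal proteins in knockdown replicates 1 to 3 and -0.20, -0.09 and -0.24 in control replicates 1 to 3. For the 42 factors it was 0.06, 0.05 and 0.02 in the knockdown and -0.03, -0.05 and -0.05 in the controls. For the 11 TOP-listed factors it was 0.11, 0.04 and 0.04 in the knockdown and -0.02, -0.11 and -0.08 in the controls. Knockdown replicate 1 was thus the highest library for each of the 3 lists, and it was the highest for 15 of the 42 factors, against 9 and 2 for knockdown replicates 2 and 3. Without it the medians were 0.25 for the ribosomal proteins and 0.09 for the factors.

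**Figure D4:**
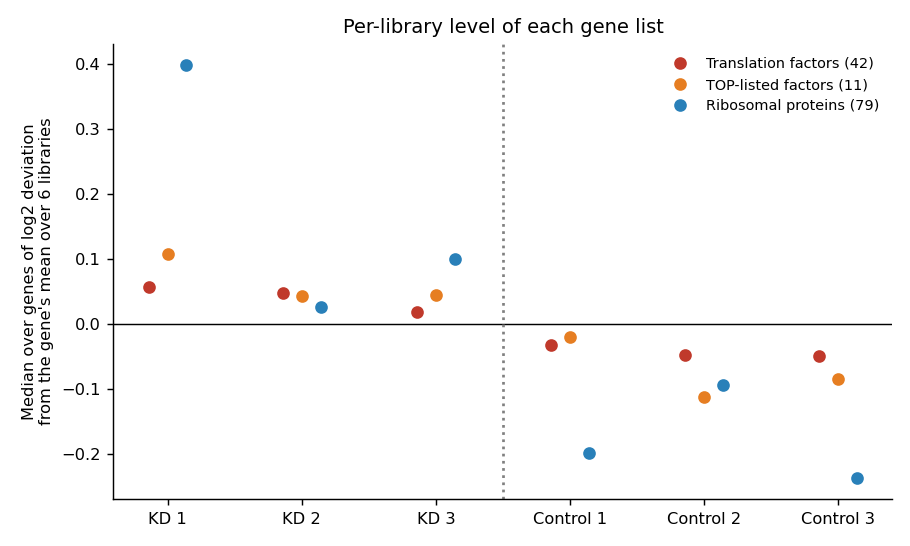
Median over the genes of a list of the log2 deviation from each gene's mean over the 6 libraries (y axis), for each library (x axis), for the 42 translation factors, the 11 of them listed as TOP mRNAs and 79 ribosomal protein genes. The 42 factors stay between -0.05 and 0.06, and the ribosomal proteins reach 0.40 in knockdown replicate 1.

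Other genes of the machinery gave no call in edgeR. Of 26 further initiation, elongation and release factors 25 were tested, with a median of 0.05. An unadjusted p under 0.05 was reached by 3 on the higher side (12%, against 8.15% of all genes) and 1 on the lower (4%, against 7.43%), and DESeq2 called 2 higher (against 3.42%). Those were MCTS1, a reinitiation factor, and EEF1E1, a scaffold of the aminoacyl-tRNA synthetase complex. MCTS1 had 155, 131 and 153 CPM in the knockdown and 117, 116 and 117 CPM in the controls, without overlap (0.33, edgeR adjusted p = 0.157, DESeq2 adjusted p = 0.04). EEF1E1 had 39.8, 31.9 and 41.1 CPM in the knockdown and 30.1, 24.0 and 28.1 CPM in the controls, with knockdown replicate 2 close to control replicate 1 (0.46, edgeR adjusted p = 0.148, DESeq2 adjusted p = 0.0281). After the length and GC correction MCTS1 was at 0.19 and EEF1E1 at 0.30.

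Of 30 regulators 29 were tested, with a median of -0.06. An unadjusted p under 0.05 was reached by 4 on the higher side (13.8%, against 8.15% of all genes) and 5 on the lower (17.2%, against 7.43%), and DESeq2 called 2 higher (against 3.42%). PPP1R15A, the stress-induced subunit that directs a phosphatase to EIF2, had 104, 111 and 117 CPM in the knockdown and 74.3, 83.0 and 79.7 CPM in the controls. The groups were well apart (0.49, edgeR adjusted p = 0.0559, DESeq2 adjusted p = 0.000527), and edgeR called it in 4 alternative fits, with the stricter filter (adjusted p = 0.0419), with either length and GC correction (0.00814 and 0.0105) and without control replicate 2 (0.0275). Over all alternatives the adjusted p of PPP1R15A lay between 0.000527 (DESeq2) and 0.33 (edgeR without knockdown replicate 3). EIF4EBP1, the repressor that mTOR removes from EIF4E, had 79.9, 69.8 and 78.5 CPM in the knockdown and 51.7, 63.9 and 58.8 CPM in the controls, without overlap (0.39, edgeR adjusted p = 0.142, DESeq2 adjusted p = 0.0286). edgeR called EIF4EBP1 without control replicate 2 (0.46, adjusted p = 0.0428), and it was at 0.23 after the length and GC correction. Its adjusted p lay between 0.0286 (DESeq2) and 0.454 over all alternatives.

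On the lower side, EEF2K, the kinase that inactivates EEF2, had 26.9, 33.6 and 26.5 CPM in the knockdown and 35.3, 38.5 and 41.0 CPM in the controls. Its groups did not overlap (-0.40, edgeR adjusted p = 0.17). EIF4ENIF1, which carries EIF4E into the nucleus, had 27.9, 34.1 and 30.6 CPM in the knockdown and 37.9, 37.1 and 41.97 CPM in the controls, also without overlap (-0.34, edgeR adjusted p = 0.202). Both genes share exons with a gene on the opposite strand, SFI1 among those of EIF4ENIF1. LARP1, the repressor of TOP mRNAs, had 208, 240 and 237 CPM in the knockdown and 234, 258 and 246 CPM in the controls and overlapped (-0.10, edgeR adjusted p = 0.668), and its sign turned after the length and GC correction (0.0119). The EIF2 kinase genes EIF2AK1, EIF2AK2, EIF2AK3 and EIF2AK4, singled out after their values were seen, were at -0.23, -0.24, -0.26 and -0.06, none called by edgeR or DESeq2.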

How the data were processed

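RNA-seq counts of 6 libraries were used. The values the authors deposited are whole counts of reads per gene, not normalized. Build GRCh38 and the tools edgeR, DESeq2, StringTie 1.3.4d, HISAT2 2.0.4 and cutadapt 1.9 are named per the submitters' processing notes. What wrote the counts, its strand setting and its handling of multi-mapped reads: not given in the sources used here. Exons of 28 of the 42 genes overlap another gene in GENCODE 29 (GRCh38), 23 on the opposite and 10 on the same strand, and those counts are uncertain. Of 60612 identifiers 60588 matched a symbol.

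In R 4.3.3, edgeR 4.0.16 (quasi-likelihood F test, TMM, filterByExpr with a minimum of 10 counts, group as the only term, two-sided, Benjamini-Hochberg) tested 17723 of 29520 genes with a count. DESeq2 1.42.0 and limma-voom (limma 3.58.1) were alternatives, and the procedure was tested on simulated data. TPM used the APPRIS principal transcript of median length. The correction for length and GC content was a per-library loess surface with a span of 0.3, and 98.8% of tested genes had a length. Start sites came from RefSeq windows of GRCh38.p14. Libraries of a group all differed by more than counting noise (chi-square over its degrees of freedom was 22.6 to 80.1).

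The members and lists were chosen with earlier results of these data known. Values in every library are given for 12 members fixed by name, the 14 of smallest p and the 4 largest estimates in each direction, 21 genes in all. Beyond the members, they are given for TEAD3, for the 6 other factors and regulators of smallest p, and for EIF4EBP1, PPP1R15A, EEF2K and LARP1.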

Additional observations from a re-analysis of the deposited data

How the results depend on the processing

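No call among the 42 factors was made under 15 of 16 alternatives. The exception, chosen after seeing the data, was the length and GC correction with the longest principal transcript, with 1 call, EEF1A1. The number lower at an unadjusted p under 0.05 became 4 with either correction, and over the fits without 1 library it ran from 0 to 6, while the number higher ran from 0 to 11. The shares of all genes at that p under these alternatives are not given here. The median over the 42 was 0.08 with the correction (0.0817, and 0.0765 with the longest transcript) and 0.0775 to 0.1114 without 1 library. For the 11 TOP-listed factors it was 0.1056 and 0.0979 with the corrections and 0.0833 to 0.1877 without 1 library. The sign of uncalled estimates turned for EEF2 (-0.016 to 0.2088 without 1 library), EIF2S1 (-0.0131 with the correction), PABPC1 (-0.0507 to 0.0744 without 1 library) and LARP1 (0.0119 and 0.0058 with the corrections). Of 336 values for the 21 named members, 331 kept direction and call, 4 turned sign and 1 was the call of EEF1A1. TEAD3 was not called without a filter on low counts (-1.56, edgeR adjusted p = 0.0639), and without 1 library its log2 fold change ran from -1.80 to -1.37, with no call without knockdown replicates 1 and 3 and control replicate 3 (edgeR adjusted p of 0.0532, 0.0938 and 0.0541). Over all genes edgeR called 116 (80 higher and 36 lower), 618 with the correction (299 and 319), 603 with the longest transcript, 31 without a filter and 20 to 589 without 1 library, and DESeq2 called 872. The cause was not tested. Same-numbered libraries did not deviate together (correlations of 0.0183, -0.0496 and -0.0055). These values give no sign that the numbers pair the libraries, but cannot tell whether any were prepared together. With the replicate block edgeR called none of the 42 and 63 genes in all, against 116 without it, and the median over the 42 was 0.1086.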
